A study of Mus musculus with 11 samples.

Results

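Histone genes were examined across 11 mouse RNA-seq libraries: every gene symbol starting with Hist1h, Hist2h, Hist3h, Hist4h, H1f, H2af or H3f, which gave 84 of the 24411 symbols counted. Of these, 64 were classed as replication-dependent genes (5 for linker histone H1, 17 for H2A, 17 for H2B, 12 for H3 and 13 for H4). This class rests on a symbol starting with Hist, germ-line genes and pseudogenes aside, and not on the transcripts or on expression in S phase. The other members are 10 variant genes, 8 genes known from the germ line and 2 pseudogenes. The libraries came from mice of 8 to 10 weeks. BKO-CC (2 libraries) was dissected corpus callosum of Bmal1-/- mice, which lack the clock transcription factor BMAL1, and WT-CC (3) was that of wild-type mice. BKO-NSP (3) and WT-NSP (3) were primary neurospheres, floating balls of stem and progenitor cells, from the subventricular zone of Bmal1-/- and wild-type mice after 1 week with EGF at 20 ng/ml and heparin at 2 ug/ml. RNA had been selected with oligo dT or depleted of rRNA, and the labels do not say which was used for a library.

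DNA is wrapped around octamers of H2A, H2B, H3 and H4, and H1 binds the linker between them. Replication-dependent genes lie in clusters, are transcribed mainly in S phase, and their mRNAs end at a conserved stem-loop, bound by the protein SLBP, in place of a poly(A) tail. Variant genes such as H3f3a and H3f3b, which both encode H3.3, carry introns or poly(A) signals, are transcribed outside S phase too, and supply histones to cells that do not divide, such as neurons and oligodendrocytes.

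Gene counts summed to 17513165 to 17836955 per callosum library and 17450270 to 19717848 per neurosphere library. Arntl, the gene symbol of Bmal1, had 32.6 to 40.8 CPM (read counts scaled to 1 common library size over the 11 libraries) in BKO-CC and 33.0 to 39.7 CPM in WT-CC, and 40.5 to 48.2 CPM in BKO-NSP and 37.9 to 48.8 CPM in WT-NSP. The labels do not name the deleted part, and a deletion of some exons need not lower a gene count, so Arntl gives no check of the genotype labels. Summed levels of 10 oligodendrocyte markers were 24958 to 35060 CPM in BKO-CC and 22458 to 33879 CPM in WT-CC, and those of 12 neuron markers were 15582 to 17130 CPM and 14347 to 19196 CPM, so the callosum samples held neuronal RNA. Summed levels of 10 neural stem cell markers were 4698 to 6614 CPM in BKO-NSP and 3638 to 4558 CPM in WT-NSP, against 252 to 398 CPM over all callosum libraries. BKO-NSP replicate 1 stood apart, with 22.6% of reads unmapped against 13.7% to 16.2% in the other neurosphere libraries. In that library longer transcripts were counted less, relative to the mean of the other neurosphere libraries (Spearman rho = -0.642 over 14766 genes as points, which share a library, against 0.209 to 0.403 in the others).

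The stem-loop was looked for from the stop codon on in the annotated transcripts of each member, as a stem of 6 base pairs and a loop of 4. It was found in 47 members. Of those, 26 share 1 core of 16 bases. The sequences below are those of the genes that hold most of the counts or of the named changes, with Hist1h3b and Hist1h2ab as genes whose annotated transcript stops soon after the stem-loop. They are read 5′ to 3′ from GENCODE M21 transcripts (mm10), and capitals mark the core.
Hist3h2a (chr11:58955167-58955192, + strand): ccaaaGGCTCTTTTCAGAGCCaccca
Hist3h2ba (chr11:58949344-58949369, + strand): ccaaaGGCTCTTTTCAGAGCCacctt
Hist1h1c (chr13:23739507-23739532, + strand): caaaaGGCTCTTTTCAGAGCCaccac
Hist1h2be (chr13:23585526-23585551, - strand): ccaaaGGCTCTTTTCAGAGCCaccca
Hist1h4h (chr13:23531453-23531478, + strand): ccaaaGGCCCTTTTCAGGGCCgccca
Hist1h3b (chr13:23752815-23752840, + strand): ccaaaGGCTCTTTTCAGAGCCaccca
Hist1h2ab (chr13:23751567-23751592, + strand): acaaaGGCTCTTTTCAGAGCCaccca
H2afx (chr9:44335235-44335260, + strand): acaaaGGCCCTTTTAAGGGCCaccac
H2afx, which encodes the H2A.X that is phosphorylated around DNA breaks, was the 1 variant gene with a match. These genes differed in how far the annotated transcript runs on past the stem-loop. It goes on for 51 bases in Hist1h3b, 11 in Hist1h2ab and 46 in Hist1h4h, against 1643 in Hist3h2a, 169 in Hist3h2ba, 840 in Hist1h1c, 1861 in Hist1h2be and 822 in H2afx. A long run did not always go with counts. Hist1h1d runs on for 4884 bases and Hist4h4 for 2445, with 18 and 8 counts over the 11 libraries.

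Few replication-dependent genes were counted at all. The 64 genes took 13999 counts over the 11 libraries, and 6 genes with a mean of 20 or more counts per library held most of them. Hist1h2bc, an H2B gene of the main cluster, held 40.9%, the H2A gene Hist3h2a 19.3%, the H1.2 gene Hist1h1c 14.8%, the H2B gene Hist3h2ba 9.34%, the H2B gene Hist2h2be 7.74% and the H2B gene Hist1h2be 1.98%. The other 58 genes summed to 36 and 45 counts in BKO-CC, 61 to 68 in WT-CC, 65 to 146 in BKO-NSP and 74 to 92 in WT-NSP. No count was found for 11 of the 64 in any library. The 12 H3 genes together had 5 and 6 counts in BKO-CC, 5 to 9 in WT-CC, 8 to 17 in BKO-NSP and 7 to 15 in WT-NSP.

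The counts differed with the annotated end of the transcript. Of 23 genes whose transcript ends within 100 bases of the stem-loop, none reached a mean of 20 counts, and together they held 74 counts without and 73 with a poly(A) signal (AATAAA or ATTAAA in the last 60 bases). Of 11 genes whose transcript runs further and carries a poly(A) signal, 4 reached that mean (Hist3h2a, Hist1h1c, Hist3h2ba and Hist1h2be), and the 11 held 46.7% of the counts. Another 11 genes run past the stem-loop without such a signal, and none reached a mean of 20. Hist2h2be had a poly(A) signal and no stem-loop match, so its place among the replication-dependent genes rests on its symbol alone. Hist1h2bc, whose longest annotated transcript is spliced, had neither a signal nor a match. Most other genes with neither have only 3 to 5 annotated bases after the last coding base, the stop codon included, so no match was possible. For those the lack of a match says nothing about the gene. These shares describe annotated ends and were not tested. Which ends the reads came from, and how the RNA was selected, cannot be told apart in gene counts.

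**Figure D1:**
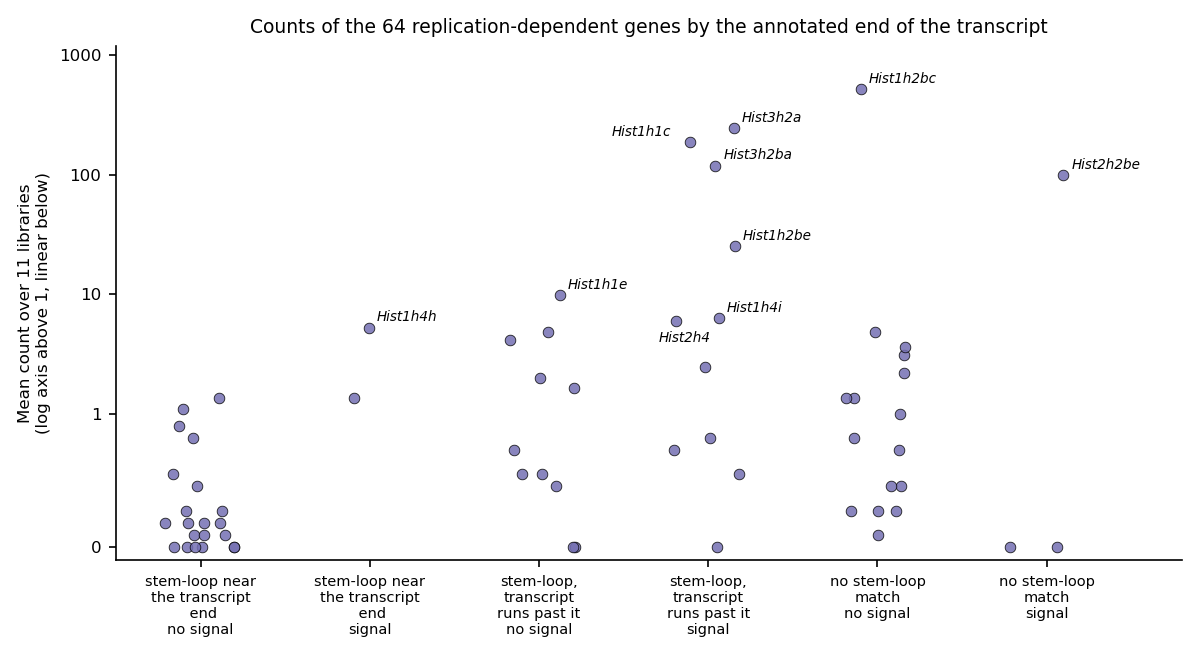
Mean read count over the 11 libraries (y axis, logarithmic above 1 and linear below) for each of the 64 replication-dependent genes (points), grouped by the annotated transcript end; "signal" means a poly(A) signal in the last 60 bases. The 6 genes with a mean of 20 or more all lie in the groups whose transcripts run past the stem-loop with a signal or have no stem-loop match. Most genes with no match and no signal have annotated transcripts that stop at or near the stop codon, where no match was possible.

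Near-identical copies limit these counts, since reads that map to several places are absent. A median of 56.0% of the 50-base stretches of a replication-dependent gene also occur in transcripts of another gene, and 34 of the 64 share over 50%. For the variant genes the median was 9.03%, and only H2afz (69.6%) was over 50%. Among the genes with counts, the shared part was 0% in Hist2h2be, 8.54% in Hist1h1c, 22.1% in Hist3h2ba, 30.6% in Hist1h2bc, 31.5% in Hist3h2a and 45.8% in Hist1h4h. Exons of Hist3h2a overlap Trim17 on the same strand and Gm44313 on the opposite one, and those of Hist1h2be overlap Hist1h1e. H3f3a shares 30.3% and H3f3b 8.40%, so levels of near-identical genes are uncertain, more so than the change of 1 gene between groups.

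The 10 variant genes held most histone counts, and their order differed between sources. Levels are given per kb of the longest coding transcript. In callosum H1fx, the linker histone H1X, stood highest, at 147 ± 17.6 CPM per kb in BKO-CC and 135 ± 11.8 in WT-CC (SD, n = 2 and 3). H1f0, which encodes the H1.0 that accumulates in cells that have stopped dividing, followed at 80.3 ± 1.14 in BKO-CC and 70.9 ± 3.90 CPM per kb in WT-CC. Next came H2afx, at 63.2 ± 5.09 and 61.4 ± 4.74 CPM per kb, and H2afy, which encodes macroH2A1, at 66.5 ± 11.3 and 57.3 ± 0.64 CPM per kb, which did not differ beyond their spread. In neurospheres H3f3b stood highest, at 108 ± 24.0 CPM per kb in BKO-NSP and 96.1 ± 7.50 in WT-NSP (SD, n = 3 each). H2afx and H2afy came next and overlapped each other in BKO-NSP, and H1fx stood sixth at 44.4 ± 14.0 and 30.0 ± 5.11 CPM per kb. H2afz, which encodes H2A.Z.1, was among the lowest variants in all 4 groups, between 3.90 and 10.6 CPM per kb on average, although 69.6% of it is shared with other transcripts.

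**Figure D2:**
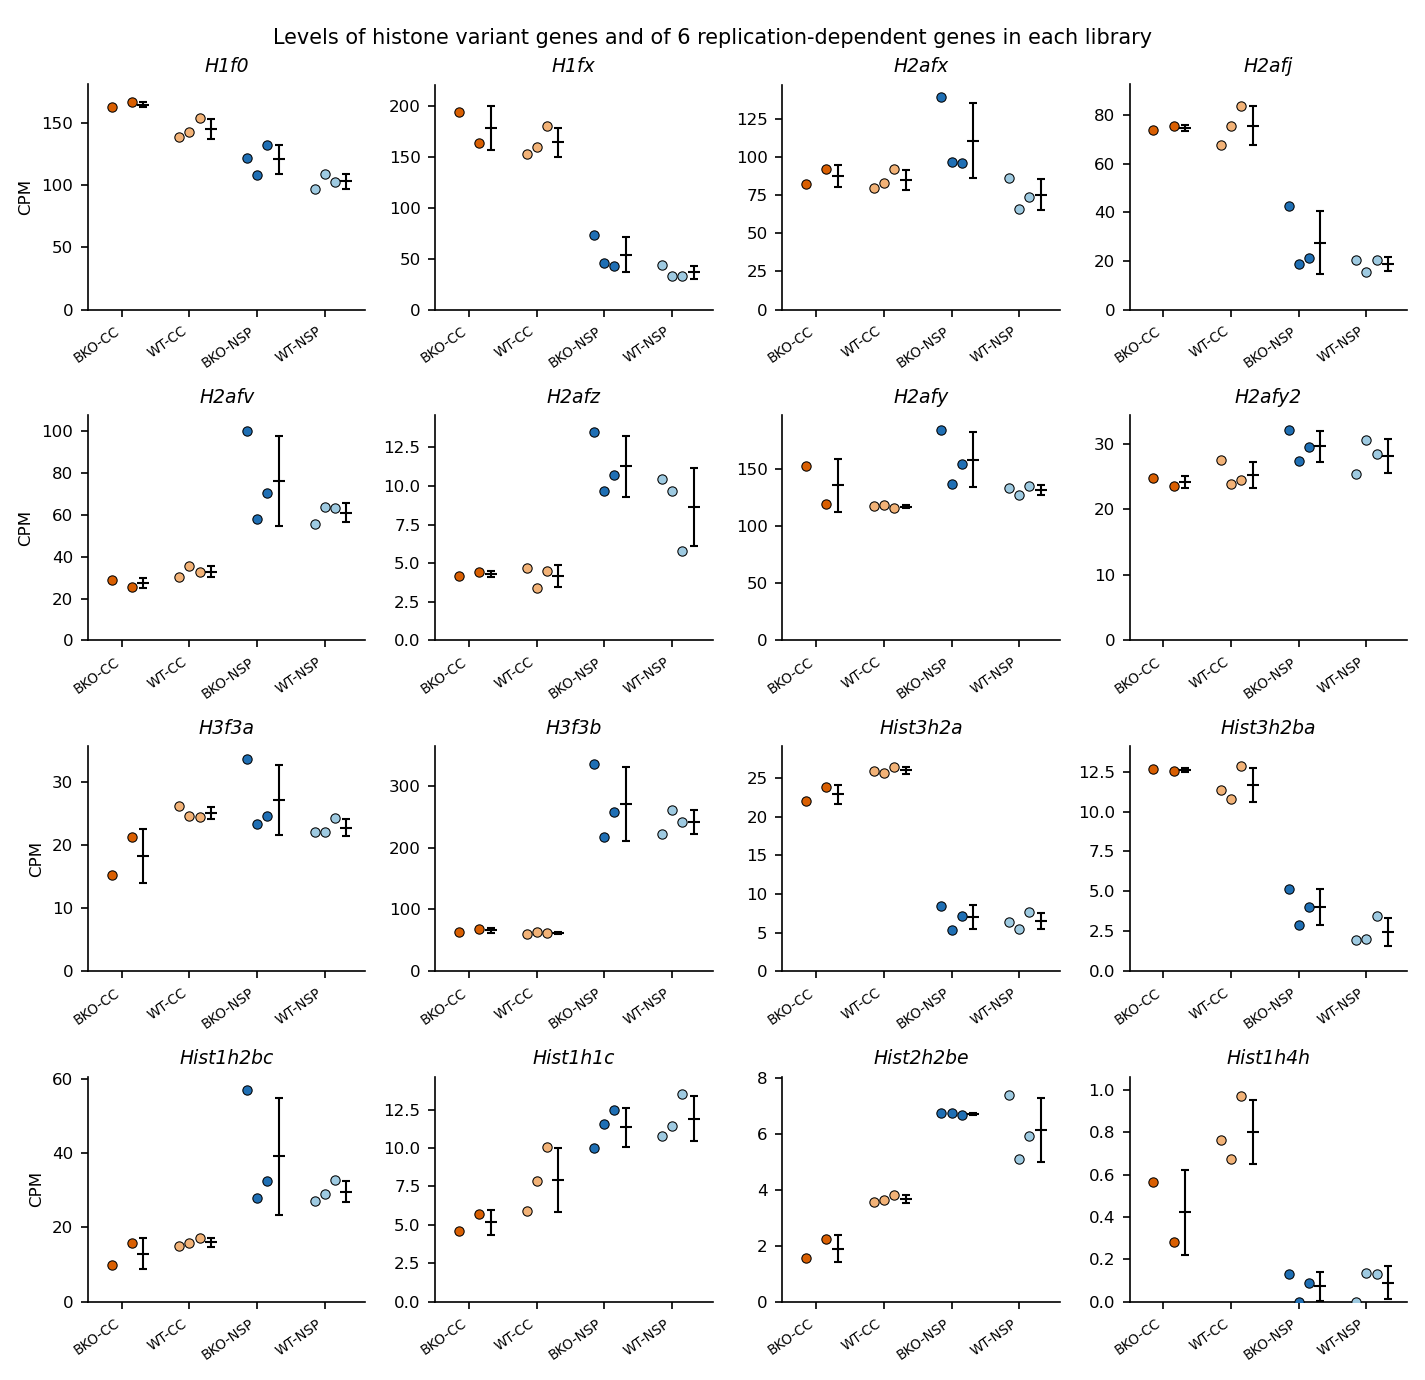
Level in CPM (y axis, linear from 0) of the 10 variant genes and of 6 replication-dependent genes in each library (points), by group, with mean and SD (black bars). H1f0, H1fx, H2afj, Hist3h2a, Hist3h2ba and, on few reads, Hist1h4h lie higher in every callosum library than in any neurosphere library. H3f3b, H2afv, H2afz, Hist1h2bc and Hist2h2be lie lower in every callosum library.

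Between RNA sources, several histone genes were called in each direction. In Bmal1-/- 16 members were tested, of which 4 rose and 6 fell in BKO-CC relative to BKO-NSP (62.5%), against 72.6% of all genes tested (35.1% higher and 37.5% lower). Without adjustment 11 of them had a p under 0.05, against 74.9% of all genes. In wild type 17 were tested, of which 6 rose and 6 fell in WT-CC relative to WT-NSP (70.6%), against 85.8% of all genes (42.0% higher and 43.8% lower), and 12 had an unadjusted p under 0.05, against 86.5%. Of the 6 that rose, Hist1h4h passed the low-count filter through WT-CC alone. The share of members called was in both genotypes below that of all genes. The median size of a log2 fold change was 1.42 over the members tested in Bmal1-/- and 1.62 over all genes, and 0.88 and 1.59 in wild type. All 10 members called in Bmal1-/- were called with the same sign in wild type, and these comparisons share no library. With 72.6% and 85.8% of all genes called, such agreement need not be particular to histone genes. The share of all genes called alike in both genotypes was not computed. In bulk tissue, fewer cells of a type and less RNA per cell cannot be told apart.

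The sources differ in composition, and so do their scaling factors (TMM 0.803 to 0.850 in callosum, 1.14 to 1.30 in neurospheres). With plain library size in place of TMM, the median of all genes moved by -0.60 in Bmal1-/- and -0.50 in wild type, and 35.4% and 39.3% of calls were higher, against 48.4% and 49.0% with TMM. Members then called lower numbered 11 in Bmal1-/- and 10 in wild type. Length offsets moved the median by 0.13 and 0.12. Cell type markers moved with source: of 20 genes of G2 and M phase all 20 fell in callosum in both genotypes, and of 32 S-phase genes 28 fell in Bmal1-/- and 29 in wild type. Of 12 neuron markers 10 rose in both genotypes, of 10 oligodendrocyte markers 9 rose, and of 10 neural stem cell markers 7 fell. Their part in the histone differences was not tested. Unmapped reads took 7.77% to 8.46% of callosum libraries and 13.7% to 22.6% of neurosphere libraries, and RNA source and library handling cannot be told apart.

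Among linker histones, H1fx rose most. It had 194 and 163 CPM in BKO-CC and 153, 160 and 180 CPM in WT-CC, against 73.7, 45.5 and 43.0 CPM in BKO-NSP and 43.7, 32.5 and 33.4 CPM in WT-NSP. Every callosum library was above every neurosphere library, and the log2 fold change of callosum over neurospheres was 1.74 ± 0.29 in Bmal1-/- (SE, edgeR adjusted p = 0.00153) and 2.18 ± 0.14 in wild type (adjusted p = 3.63e-07). H1f0 had 163 and 167 CPM in BKO-CC and 139, 143 and 155 CPM in WT-CC, against 122, 108 and 132 CPM in BKO-NSP and 97.4, 109 and 103 CPM in WT-NSP. Its libraries did not overlap between sources, but the difference was small: 0.47 ± 0.19 in Bmal1-/- (edgeR adjusted p = 0.057), and 0.51 ± 0.10 in wild type (adjusted p = 0.000696), where it was 0.01 with plain library size (adjusted p = 0.951). In Bmal1-/- it was called higher by DESeq2 (0.52, adjusted p = 0.0445), limma-voom (0.47, 0.0486), with RLE scaling (0.55, 0.0331), in the single model (0.45, 0.0116) and without BKO-NSP replicate 1 (0.46, 0.0108), and was -0.14 with plain library size (adjusted p = 0.548). The ratio of H1fx to H1f0 counts within a library, which no scaling touches, was 1.19 and 0.980 in BKO-CC and 1.10 to 1.17 in WT-CC, against 0.325 to 0.605 in BKO-NSP and 0.298 to 0.449 in WT-NSP. Hist1h1c went the other way, with 4.58 and 5.74 CPM in BKO-CC and 5.91, 7.86 and 10.0 CPM in WT-CC, against 10.0, 11.6 and 12.5 CPM in BKO-NSP and 10.8, 11.4 and 13.5 CPM in WT-NSP. It fell, with log2 fold changes of -1.12 ± 0.26 in Bmal1-/- (edgeR adjusted p = 0.00738) and -0.57 ± 0.21 in wild type (adjusted p = 0.0281). The call in Bmal1-/- ended without BKO-CC replicate 1 (adjusted p = 0.0744), and that in wild type without WT-CC replicate 1 (0.0919), WT-CC replicate 2 (0.0703) or WT-NSP replicate 3 (0.0834).

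H2afj, which encodes H2A.J, an H2A variant of mammals, rose. It had 73.8 and 75.5 CPM in BKO-CC and 67.6, 75.6 and 83.9 CPM in WT-CC, against 42.6, 18.9 and 21.1 CPM in BKO-NSP and 20.4, 15.5 and 20.5 CPM in WT-NSP. The groups did not overlap between sources, and the log2 fold change was 1.46 ± 0.37 in Bmal1-/- (edgeR adjusted p = 0.0109) and 2.02 ± 0.15 in wild type (adjusted p = 8.14e-07). The call in Bmal1-/- ended with plain library size, which lowered the value to 0.82 (adjusted p = 0.107), and without BKO-CC replicate 1 (1.48, adjusted p = 0.0554) or 2 (1.44, adjusted p = 0.0596), which left its size as it was. H2afx had 82.5 and 92.5 CPM in BKO-CC and 79.6, 83.2 and 92.3 CPM in WT-CC, against 140, 96.9 and 96.2 CPM in BKO-NSP and 86.4, 66.0 and 73.7 CPM in WT-NSP. It was not called, at -0.32 ± 0.25 in Bmal1-/- and 0.19 ± 0.12 in wild type, but alternatives gave calls in either direction. In wild type it was called lower with plain library size (-0.32, adjusted p = 0.0439), called higher without WT-NSP replicate 1 (0.29, adjusted p = 0.0229), and was -0.21 with length offsets (adjusted p = 0.132). In Bmal1-/- it was called lower with plain library size (-0.94, adjusted p = 0.0186) and with length offsets (-0.49, adjusted p = 0.0147). The ratio of H2afj to H2afx counts was 0.894 and 0.817 in BKO-CC and 0.849 to 0.909 in WT-CC, against 0.195 to 0.305 in BKO-NSP and 0.234 to 0.279 in WT-NSP.

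Both H2A.Z genes fell in callosum. H2afv, which encodes H2A.Z.2, had 29.0 and 25.8 CPM in BKO-CC and 30.2, 35.7 and 32.9 CPM in WT-CC, against 100, 58.1 and 70.4 CPM in BKO-NSP and 55.8, 63.9 and 63.6 CPM in WT-NSP. H2afz had 4.16 and 4.41 CPM in BKO-CC and 3.36 to 4.66 CPM in WT-CC, against 13.5, 9.64 and 10.7 CPM in BKO-NSP and 10.5, 9.67 and 5.77 CPM in WT-NSP. Neither overlapped between sources, and H2afv fell, with log2 fold changes of -1.46 ± 0.29 in Bmal1-/- (edgeR adjusted p = 0.00376) and -0.88 ± 0.11 in wild type (adjusted p = 4.96e-05). H2afz fell, with log2 fold changes of -1.38 ± 0.28 (adjusted p = 0.00376) and -1.04 ± 0.26 (adjusted p = 0.00441). The ratio of H2afv to H2afz counts overlapped between all 4 groups (5.84 and 6.97 in BKO-CC, 6.48 to 10.6 in WT-CC, 6.02 to 7.44 in BKO-NSP and 5.34 to 11.02 in WT-NSP). The macroH2A genes were not called. H2afy had 152 and 120 CPM in BKO-CC and 116 to 118 CPM in WT-CC, against 137 to 184 CPM in BKO-NSP and 127 to 135 CPM in WT-NSP, with log2 fold changes of -0.20 ± 0.22 in Bmal1-/- and -0.15 ± 0.09 in wild type. H2afy2, which encodes macroH2A2, had 24.8 and 23.5 CPM in BKO-CC and 23.8 to 27.5 CPM in WT-CC, against 27.3 to 31.99 CPM in BKO-NSP and 25.4 to 30.5 CPM in WT-NSP, with -0.27 ± 0.20 and -0.14 ± 0.12. With plain library size both were called lower in both genotypes (-0.82 and -0.66 for H2afy, -0.88 and -0.65 for H2afy2).

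The H3.3 genes, which encode the same protein, differed from each other. H3f3b had 63.3 and 68.7 CPM in BKO-CC and 59.6, 62.8 and 61.4 CPM in WT-CC, against 336, 218 and 257 CPM in BKO-NSP and 223, 261 and 241 CPM in WT-NSP. Each neurosphere library stood at over 3-fold any callosum library, and H3f3b fell, with log2 fold changes of -2.02 ± 0.26 in Bmal1-/- (edgeR adjusted p = 0.000469) and -1.97 ± 0.10 in wild type (adjusted p = 7.89e-08). H3f3a had 15.2 and 21.3 CPM in BKO-CC and 26.2, 24.7 and 24.5 CPM in WT-CC, against 33.6, 23.3 and 24.6 CPM in BKO-NSP and 22.04, 22.1 and 24.3 CPM in WT-NSP. It was not called, at -0.56 ± 0.28 in Bmal1-/- (edgeR adjusted p = 0.111) and 0.15 ± 0.11 in wild type (adjusted p = 0.218), but with plain library size it was called lower in both (-1.17, adjusted p = 0.0123, and -0.35, adjusted p = 0.0142), and in Bmal1-/- in the single model too (-0.57, adjusted p = 0.0219). H3f3b counts were 4.16 and 3.23 times those of H3f3a in BKO-CC and 2.28 to 2.55 times in WT-CC, against 9.36 to 10.4 times in BKO-NSP and 9.91 to 11.8 times in WT-NSP. This ratio overlapped between genotypes in neurospheres and not in callosum. With groups of 3 and 3, or 2 and 3, an exact permutation test of a ratio cannot reach 0.05, and none was run.

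**Figure D3:**
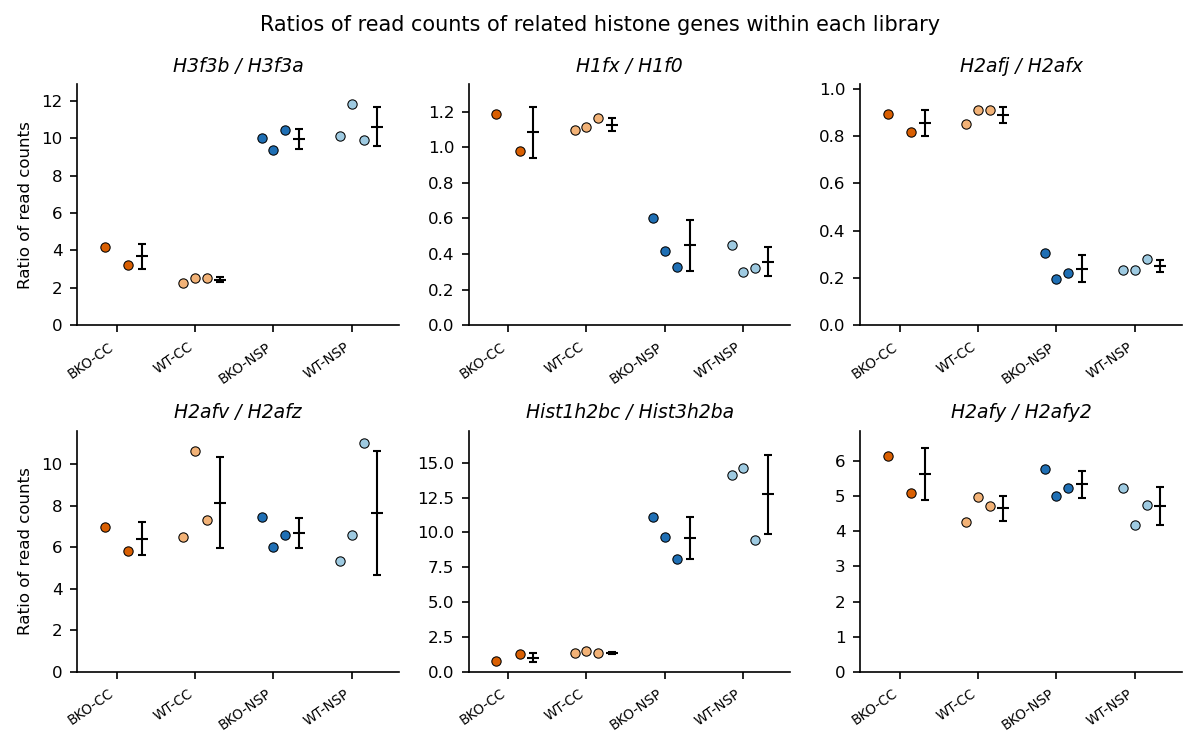
Ratio of the read counts of 2 related genes within each library (points; y axis, linear from 0), by group, with mean and SD. For H3f3b over H3f3a, H1fx over H1f0, H2afj over H2afx and Hist1h2bc over Hist3h2ba the callosum and neurosphere libraries do not overlap, whereas for H2afv over H2afz and H2afy over H2afy2 they do.

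Of the replication-dependent genes, 6 were tested in Bmal1-/-, of which 2 rose and 3 fell, and 7 in wild type, of which 3 rose and 3 fell. The genes that rose in both genotypes were Hist3h2a and Hist3h2ba, neighbours on chromosome 11. Hist3h2a had 22.1 and 23.8 CPM in BKO-CC and 25.9, 25.7 and 26.5 CPM in WT-CC, against 8.45, 5.32 and 7.19 CPM in BKO-NSP and 6.35, 5.51 and 7.63 CPM in WT-NSP. Hist3h2ba had 12.7 and 12.5 CPM in BKO-CC and 11.3, 10.8 and 12.9 CPM in WT-CC, against 5.13, 2.88 and 4.03 CPM in BKO-NSP and 1.92, 1.99 and 3.46 CPM in WT-NSP. Neither overlapped between sources, while S-phase and G2/M genes were lower in callosum. The log2 fold change of Hist3h2a was 1.73 ± 0.27 in Bmal1-/- (edgeR adjusted p = 0.0011) and 2.01 ± 0.15 in wild type (adjusted p = 1.11e-06), and that of Hist3h2ba was 1.67 ± 0.31 (adjusted p = 0.00251) and 2.26 ± 0.25 (adjusted p = 1.72e-05). Hist1h4h, an H4 gene, was tested in wild type and was called higher, at 3.08 ± 0.62 (edgeR adjusted p = 0.00111), on few reads. It had 8 and 4 counts in BKO-CC and 11, 10 and 14 counts in WT-CC, against 3, 0 and 2 counts in BKO-NSP and 0, 3 and 3 counts in WT-NSP. Its mean in WT-NSP, 0.0896 CPM, lies under what 3 counts are worth there (0.133 to 0.136 CPM), which leaves the size of the difference uncertain. No WT-NSP library was over the low-count cutoff, so it entered the test through WT-CC alone and had to lie higher there, and its call supports nothing. Without it 16 members were tested in wild type, of which 5 rose and 6 fell (68.8%).

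Hist1h2bc and Hist2h2be fell with Hist1h1c. Hist1h2bc had 9.94 and 15.9 CPM in BKO-CC and 14.9, 15.9 and 17.1 CPM in WT-CC, against 57.0, 27.8 and 32.5 CPM in BKO-NSP and 27.1, 29.0 and 32.8 CPM in WT-NSP. It fell, with log2 fold changes of -1.58 ± 0.41 in Bmal1-/- (edgeR adjusted p = 0.0109) and -0.88 ± 0.13 in wild type (adjusted p = 0.000111), and the call in Bmal1-/- ended without BKO-CC replicate 1 (adjusted p = 0.0936). Hist2h2be, the H2B gene known in mouse for its use in olfactory neurons, had 1.55 and 2.24 CPM in BKO-CC and 3.54, 3.63 and 3.81 CPM in WT-CC, against 6.72, 6.72 and 6.66 CPM in BKO-NSP and 7.38, 5.11 and 5.90 CPM in WT-NSP. It fell, with log2 fold changes of -1.80 ± 0.31 in Bmal1-/- (edgeR adjusted p = 0.0018) and -0.73 ± 0.21 in wild type (adjusted p = 0.00827). The H2B genes thus moved apart: Hist1h2bc counts were 0.783 and 1.27 times those of Hist3h2ba in BKO-CC and 1.32 to 1.47 times in WT-CC, against 8.07 to 11.1 times in BKO-NSP and 9.49 to 14.6 times in WT-NSP. Hist1h2be was tested in both genotypes and not called, at -0.81 ± 0.44 in Bmal1-/- and -0.35 ± 0.38 in wild type, but with plain library size it was called in Bmal1-/- (-1.42, adjusted p = 0.0279). Summed over the 64 genes, the level was 59.1 ± 7.37 CPM in BKO-CC and 71.0 ± 4.82 CPM in WT-CC, and 74.1 ± 19.2 CPM in BKO-NSP and 62.0 ± 6.62 CPM in WT-NSP (SD, n = 2, 3, 3 and 3). On this TMM scale the sums overlapped between sources in both genotypes. That depends on the scaling. With plain library size the means were lower in callosum in both genotypes. They were 47.5 ± 5.90 CPM in BKO-CC against 90.3 ± 29.4 CPM in BKO-NSP, and 58.6 ± 4.39 CPM in WT-CC against 72.0 ± 6.69 CPM in WT-NSP.

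**Figure D4:**
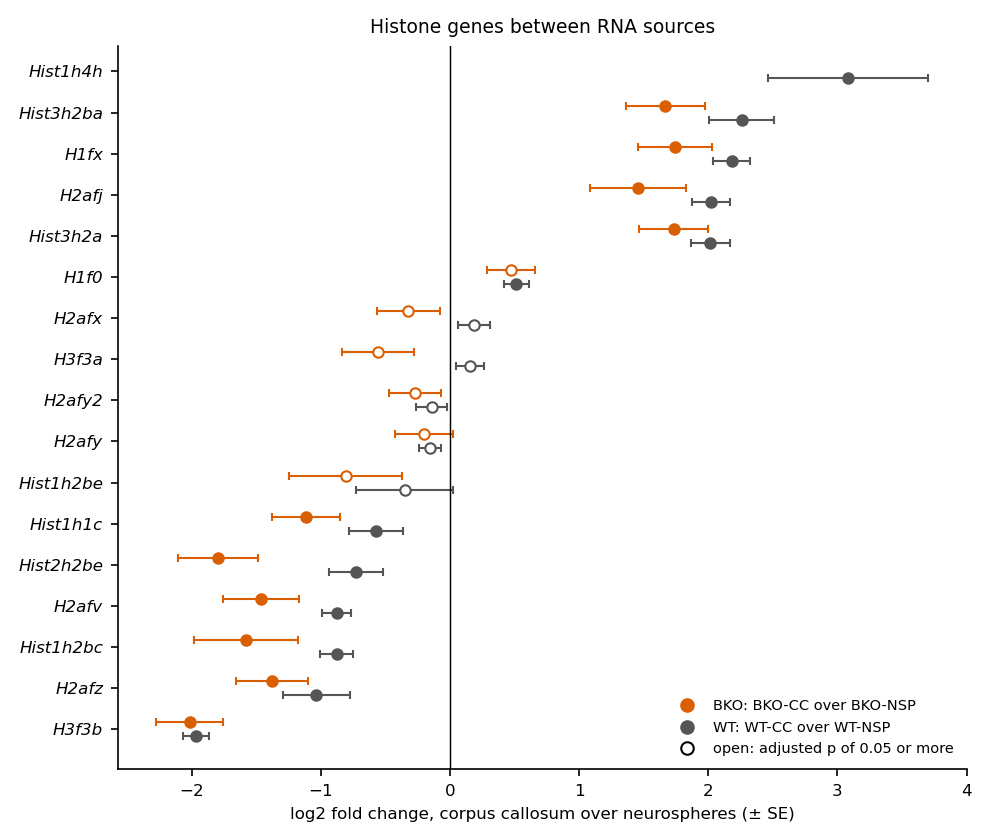
Log2 fold change of callosum over neurospheres (x axis, with SE) for each histone gene tested, in Bmal1-/- (BKO, orange) and wild type (WT, grey); open circles have an adjusted p of 0.05 or more. Hist3h2a, Hist3h2ba, H1fx and H2afj lie above 1 and H3f3b near -2 in both genotypes.

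The upstream sequences of the Hist3 pair are shown because these neighbours rose together. They are the 250 bases before the RefSeq start (GRCm38.p6), with capitals for matches, on either strand, to the letters CCAAT, to TATAAA, to the octamer of histone H2B promoters, ATGCAAAT, and to the E-box bound by CLOCK and BMAL1, which is CACGTG.
Hist3h2a (chr11:58954435-58954684, + strand): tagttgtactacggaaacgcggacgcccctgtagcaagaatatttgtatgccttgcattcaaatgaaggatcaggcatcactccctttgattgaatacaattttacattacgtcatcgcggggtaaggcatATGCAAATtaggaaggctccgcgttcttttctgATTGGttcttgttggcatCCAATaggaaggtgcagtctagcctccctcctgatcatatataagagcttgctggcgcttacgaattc
Hist3h2ba (chr11:58948661-58948910, + strand): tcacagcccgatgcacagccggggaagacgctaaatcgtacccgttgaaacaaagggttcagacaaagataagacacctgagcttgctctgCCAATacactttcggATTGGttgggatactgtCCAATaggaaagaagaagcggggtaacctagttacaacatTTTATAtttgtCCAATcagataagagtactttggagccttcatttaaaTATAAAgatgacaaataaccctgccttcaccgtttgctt
Counted in the whole window of 250 bases before and 50 after the start, CCAAT matched in 84.7% of 59 replication-dependent promoters, 66.7% of 9 variant promoters and 37.4% of all 32851 promoters in the table. TATAAA matched in 55.9%, 11.1% and 13.6%, and ATGCAAAT in 20.3%, 11.1% and 1.74%. CACGTG matched in none of the 59 replication-dependent promoters, in 1 of the 9 variant promoters (that of H2afz) and in 7.15% of all. Matches to different motifs overlapped in 0 of the 75 promoters of members. A match is only a run of letters, and neither a match nor its lack shows what a factor does there.

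Among genes that process histone mRNA or carry histones, more fell than rose in callosum. Of 25 tested genes of histone mRNA synthesis and processing, 6 rose and 13 fell in Bmal1-/- and 5 rose and 16 fell in wild type, with median log2 fold changes of -0.96 and -0.98, against -0.08 and -0.06 over all genes. Of all genes, 35.1% rose and 37.5% fell in Bmal1-/-, and 42.0% rose and 43.8% fell in wild type. In Bmal1-/- 8 of the 25 fell without BKO-CC replicate 1 or 2, and 3 rose without replicate 1 or with plain library size. Slbp, which encodes the stem-loop binding protein, fell, with log2 fold changes of -1.67 ± 0.28 in Bmal1-/- and -1.36 ± 0.19 in wild type, and Npat, the coactivator of replication-dependent histone transcription, with -2.81 ± 0.38 and -3.07 ± 0.13. Eri1, which trims the end of histone mRNAs, fell, with log2 fold changes of -3.78 ± 0.27 and -3.82 ± 0.17. Upf1, a helicase used in histone mRNA decay, rose by 1.28 ± 0.21 in Bmal1-/- and by 1.30 ± 0.12 in wild type, and Sympk, a scaffold of the cleavage complex, by 1.32 ± 0.19 and by 1.29 ± 0.10. Every call named here had an edgeR adjusted p under 0.05.

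Of 31 tested histone chaperones and modifiers, 6 rose and 19 fell in Bmal1-/- and 8 rose and 19 fell in wild type, with medians of -1.95 and -1.54. With length offsets 11 rose in Bmal1-/-. The genes that fell most were Hat1, which acetylates new H4 (-6.01 ± 0.53 in Bmal1-/- and -5.03 ± 0.30 in wild type), Npm1, which encodes nucleophosmin (-5.24 ± 0.40 and -4.17 ± 0.35), and Cenpa, the H3 variant of centromeres, kept in this list (-4.12 ± 0.31 and -3.99 ± 0.21). Asf1b (-3.18 ± 0.54 and -2.56 ± 0.36) and the CAF-1 subunit gene Chaf1b (-3.19 ± 0.57 and -3.17 ± 0.56), which bring H3 and H4 to replicating DNA, fell too. Genes of the H3.3 chaperones went both ways. Of the pair that acts at repeats, Daxx rose by 0.63 ± 0.20 in Bmal1-/- and by 0.79 ± 0.11 in wild type, while Atrx fell (-3.50 ± 0.50 and -3.76 ± 0.10). Of the HIRA complex, Cabin1 rose by 1.57 ± 0.20 and by 1.34 ± 0.12, Ubn2 fell (-3.14 ± 0.38 and -3.22 ± 0.14), Ubn1 was not called (0.55 ± 0.31 and 0.18 ± 0.14), and Hira was at 0.29 ± 0.22 (edgeR adjusted p = 0.278) and 0.36 ± 0.14 (adjusted p = 0.0351). Asf1a, whose protein hands H3 and H4 to HIRA and CAF-1, fell too (-3.68 ± 0.36 and -3.20 ± 0.22). The largest rises were those of the nucleosome assembly genes Nap1l2 (3.85 ± 0.24 and 3.91 ± 0.21) and Nap1l3 (2.67 ± 0.24 and 2.61 ± 0.17).

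No histone gene was called between genotypes. In callosum 18 members were tested and 0 called by edgeR, against 0.909% of all genes tested (0.521% higher and 0.387% lower), and 3 had an unadjusted p under 0.05, against 13.9% of all genes. DESeq2 and limma-voom called 0 members too. Hist2h2be had 22 and 32 counts in BKO-CC and 51, 54 and 55 counts in WT-CC. The groups did not overlap, and its log2 fold change of -0.93 ± 0.26 had an edgeR adjusted p of 0.183. H3f3a was at -0.45 ± 0.16 (edgeR adjusted p = 0.265), Hist1h1c at -0.61 ± 0.25 (adjusted p = 0.333) and H1f0 at 0.19 ± 0.10 (adjusted p = 0.408). None of these 4 was called in any alternative, and the smallest adjusted p of a member in any was 0.0899.

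Of the 8 replication-dependent genes tested in callosum, Hist2h4 and Hist1h4h had no library over the low-count cutoff in BKO-CC. They entered the test through WT-CC alone and had to lie lower in BKO-CC, so no count or median over the 8 is given. Hist2h4 had 6 and 6 counts in BKO-CC and 9, 11 and 16 in WT-CC, and neither gene was called. Summed over the 64 genes, there were 765 and 919 counts in BKO-CC and 964, 1035 and 1102 counts in WT-CC. These totals did not overlap between genotypes. The H4 genes had 20 and 20 counts in BKO-CC and 43, 40 and 38 in WT-CC. Those sums include Hist2h4 and Hist1h4h (8 and 4 counts in BKO-CC, and 11, 10 and 14 in WT-CC), so their gap supports nothing. The H1 genes had 68 and 84 counts in BKO-CC and 88, 121 and 157 in WT-CC, mostly from Hist1h1c (65 and 82, and 85, 117 and 145). The H2A genes had 315 and 347 in BKO-CC and 374, 387 and 391 in WT-CC, mostly from Hist3h2a (313 and 340, and 373, 382 and 383). The H1 and H2A sums did not overlap either, but each follows 1 gene that was not called (edgeR adjusted p = 0.333 and 0.536). The H2B sums, the largest, overlapped (357 and 462 in BKO-CC, and 450, 482 and 510 in WT-CC). So did those of H3 (5 and 6 in BKO-CC, and 9, 5 and 6 in WT-CC). No test was made of a sum over chosen genes. Beside them, summed levels of 10 striatal neuron markers, from tissue next to the callosum, were 1016 and 1299 CPM in BKO-CC and 1247 to 3799 CPM in WT-CC, with a median log2 fold change of -1.28 and 0 of 10 called. Those of 20 G2 and M phase genes were 31.9 and 35.6 CPM in BKO-CC and 30.2 to 53.1 CPM in WT-CC (16 tested, 0 called). Summed levels of 9 astrocyte markers were 4687 and 5081 CPM in BKO-CC and 3158 to 3408 CPM in WT-CC, which did not overlap, with 1 of 9 called higher and 1 lower. Their part in the result was not tested.

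In neurospheres 16 members were tested and 0 called by edgeR, against 0.00716% of all genes, and 1 had an unadjusted p under 0.05, against 3.02% of all genes. DESeq2 and limma-voom called 0 members as well. The smallest p-values were those of H2afx (0.56 ± 0.21), H1fx (0.56 ± 0.25), Hist3h2ba (0.71 ± 0.34) and H2afj (0.55 ± 0.32), each with an edgeR adjusted p of 0.798. For H2afx the libraries of BKO-NSP (140, 96.9 and 96.2 CPM) lay above those of WT-NSP (86.4, 66.0 and 73.7 CPM), whereas those of H1fx, Hist3h2ba and H2afj overlapped. The fold change pointed up for 14 of the 16 members, with a median of 0.26 on the log2 scale, against 49.2% of all genes and a median of -0.01.

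BKO-NSP replicate 1 held the highest CPM of the 3 BKO-NSP libraries for each of the 16 tested members except H1f0 and Hist1h1c. H2afx (140 CPM against 96.9 and 96.2) and Hist3h2ba (5.13 CPM against 2.88 and 4.03) were among them. For Hist1h1e, an H1 gene, that library had 52 counts against 8 and 5 in the other BKO-NSP libraries and 5, 7 and 11 in WT-NSP. Without it 13 of the 16 pointed up and the median was 0.08, and H2afj was at 0.09 ± 0.17, H1fx at 0.27 ± 0.16, H2afx at 0.35 ± 0.13 and Hist3h2ba at 0.49 ± 0.33, each with an edgeR adjusted p of 0.9997. With offsets for transcript length 12 of the 16 pointed up and the median was 0.05. Beside this, the median log2 fold change over 32 S-phase genes was 0.22 (0 called), with summed levels of 1013 to 1326 CPM in BKO-NSP and 741 to 1594 CPM in WT-NSP. Summed levels of 9 neuroblast markers were 407 to 427 CPM in BKO-NSP and 352 to 396 CPM in WT-NSP (0 called), without overlap. Their part in the result was not tested. Hist2h2be had 152, 154 and 152 counts in BKO-NSP and 165, 113 and 133 counts in WT-NSP, a log2 fold change of 0.13 ± 0.22.

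**Figure D5:**
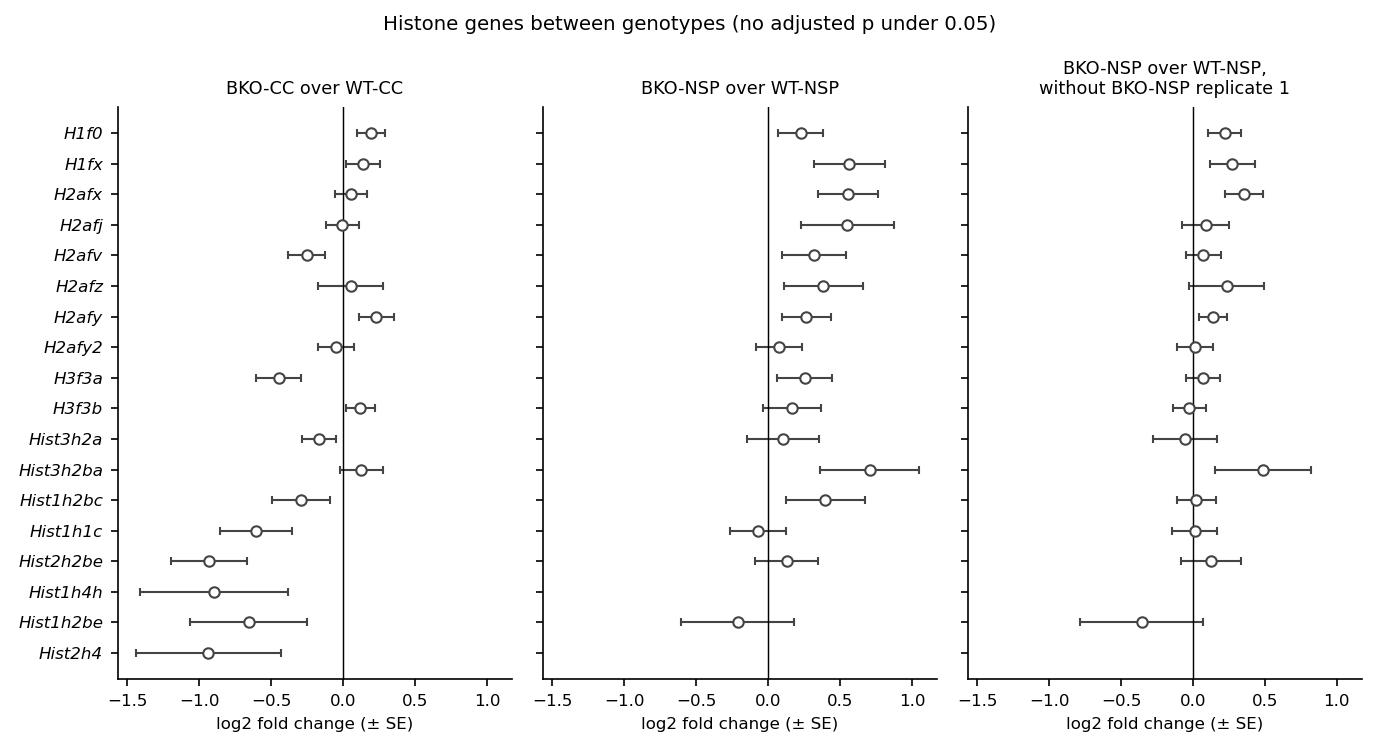
Log2 fold change of Bmal1-/- over wild type (x axis, with SE) for the tested histone genes in callosum (left), in neurospheres (middle) and in neurospheres without BKO-NSP replicate 1 (right). Every circle is open because no adjusted p was under 0.05; in the right panel most values lie closer to 0 than in the middle one.

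Whether the genotype difference itself differed between sources was tested in the interaction, with 20 members tested and 0 called by edgeR, against 0.0131% of all genes, and 2 had an unadjusted p under 0.05, against 4.28% of all genes. DESeq2 and limma-voom called 0 members here. Hist2h2be had the smallest p, with a difference of -1.08 ± 0.34 on the log2 scale (edgeR adjusted p = 0.928). H3f3a was at -0.71 ± 0.27, H2afv at -0.59 ± 0.29 and the H4 gene Hist1h4i at -2.98 ± 1.44, each with an edgeR adjusted p of 0.999. Hist1h4i rests on 0 and 1 counts in BKO-CC and 6, 3 and 3 in WT-CC, against 19, 5 and 7 in BKO-NSP and 14, 5 and 7 in WT-NSP.

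Of the 84 members, 20 were tested in at least 1 comparison and 64 in none, of which 15 had no count in any library. The 54 replication-dependent genes never tested had at most 15 counts in a library. The 8 germ-line genes, among them Hist1h1t, the testis H1, and H1foo, the oocyte H1, had at most 4 counts each in a library and none at all for 4 of them. A gene with no count may still lie at up to 3 counts, which is 0.210 and 0.211 CPM in BKO-CC, 0.202 to 0.209 in WT-CC, 0.131 to 0.133 in BKO-NSP and 0.133 to 0.136 in WT-NSP.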

How the data were processed

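For each of 11 libraries the authors deposited a file of raw counts, 1 row per gene symbol. Reads were aligned with STAR 2.7.1a to mm10, per the submitters' processing notes. Which gene models the reads were counted against was not given. The unstranded counts of the deposited files were used, because reads divided almost evenly between strands (49.6% to 50.8% on the first). Rows of unassigned reads stayed out of library sizes. Multimapped reads were listed at 0.

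Genotypes were compared within each RNA source, sources within each genotype, and the interaction was fitted on all 11 libraries. The main test was edgeR 4.0.16 in R 4.3.3 (TMM, filterByExpr, quasi-likelihood F test with robust = TRUE, two-sided), with Benjamini-Hochberg adjustment over all genes tested and calls at an adjusted p under 0.05. SE is the absolute log2 fold change over the root of F. CPM are counts on 1 TMM scale over the 11 libraries. Levels per kb use the longest coding GENCODE M21 transcript. On simulated counts the median folds put in were recovered. The alternatives were RLE scaling, plain library size (added after TMM factors were seen to differ between sources), no low-count filter, DESeq2 1.42.0, limma-voom (limma 3.58.1), offsets for transcript length, a replicate block, 1 model of 11 libraries, and each library left out.

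Transcript ends, stem-loops and shared 50-base stretches came from GENCODE M21 transcripts (GRCm38, the assembly of mm10), and 95.8% of all symbols had a transcript. Upstream sequences came from RefSeq GRCm38.p6 for the 74 members that matched. Named were all variant genes, replication-dependent genes called between sources, the 4 smallest p-values of each genotype comparison and of the interaction, and from the pathway lists the 4 largest called changes each way with Slbp, Npat, Hira, Daxx, Asf1b and Chaf1b. Hist1h2be, Hist1h1e, Hist2h4, Atrx, Ubn1, Ubn2 and Asf1a were added after their values were seen. Members and lists were chosen with earlier results of these data known. The labels do not say that replicates are separate animals or cultures, and the spread behind each p-value may be technical. Replicates differed far beyond sampling noise (chi-square per degree of freedom 6.85 to 132), and each was kept. Floors of 3 counts cover counting error only.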

Additional observations from a re-analysis of the deposited data

How the results depend on the processing

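No histone gene was called between genotypes or in the interaction under any alternative, while the number of all genes called in callosum went from 27 to 192 over libraries left out, with 129 from all libraries by edgeR, 322 with DESeq2, 224 without the low-count filter and 33 in a single model of the 11 libraries. In neurospheres it was 1, with 33 by DESeq2, 19 in the single model and 5 without BKO-NSP replicate 1, and in the interaction 2, with 37 by DESeq2 and 1 to 10 over libraries left out. Of the members called between sources, 7 of 10 in Bmal1-/- and 10 of 12 in wild type were called in every setting. The wild-type count includes Hist1h4h, which entered the main test through WT-CC alone and supports nothing. With a BKO-NSP library left out, 4 to 5 of 16 tested members were called higher and 6 lower in Bmal1-/-, beside 9912 to 12486 of all genes called. Leaving out a BKO-CC library leaves 1 in that group, so no count is given for it. With a library left out in wild type, 6 to 8 of 17 to 19 tested members were called higher and 5 to 6 lower. Of all genes, 12341 to 13057 were then called. The wild-type members called higher include Hist1h4h each time. Plain library size gave 11 of 16 tested members lower in Bmal1-/- and 10 of 17 in wild type. Of all genes, 10853 and 12675 were then called in either direction. The single model gave 7 higher and 8 lower of 20 members tested in Bmal1-/-, beside 12024 of 15322 genes called. The sign turned with plain library size for H1f0 in Bmal1-/- (-0.14), and for H2afx (-0.32) and H3f3a (-0.35) in wild type. Length offsets turned H2afx (-0.21) and H2afy (0.0326) in wild type. With plain library size the turned values of H2afx (adjusted p = 0.0439) and H3f3a (0.0142) were calls, the other 3 were not, and the cause was not tested. Without TMM, summed replication-dependent levels were 47.5 CPM in BKO-CC, 58.6 CPM in WT-CC, 90.3 CPM in BKO-NSP and 72.0 CPM in WT-NSP, so both callosum means lay under both neurosphere means. Summed variant levels were 628 CPM in BKO-CC, 609 CPM in WT-CC, 1078 CPM in BKO-NSP and 846 CPM in WT-NSP. Whether replicate numbers pair the samples was not settled. Same-numbered libraries correlated at 0.276, -0.003 and 0.284 in neurospheres, against -0.370 to 0.251 for different numbers. In callosum they correlated at 0.035 and 0.003. With 2 BKO-CC libraries the deviations from the group mean mirror each other, so that check tells little. With the replicate block the members called were 0 in both genotype comparisons and in the interaction, 4 higher and 6 lower between sources in Bmal1-/- and 6 and 6 in wild type, and all genes called were 131 in callosum, 2 in neurospheres and 1 in the interaction. Most of the family could not be tested: 54 of the 64 replication-dependent genes had too few counts.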
